A study of Mus musculus with 4 samples.

Results

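The proteasome is the barrel-shaped protease that degrades proteins marked with ubiquitin. Its 20S core is built from alpha rings, which gate entry, and beta rings, which hold the cutting sites; the 19S cap binds ubiquitin chains, and its ATPases unfold substrates and feed them into the core. In lymphocytes the same machine supplies peptides for MHC class I, and interferon gamma is known to induce both the PA28 activator encoded by Psme1 and Psme2 and a set of replacement catalytic subunits. The genes described here are the proteasome subunit genes, taken as protein-coding genes of the GENCODE mm10 annotation whose symbol is Psma, Psmb, Psmc or Psmd and a number, with Psme1, Psme2, Psme3 and Psme4 added and the induced subunits Psmb8, Psmb9 and Psmb10 left out. The rule gave 40 of the 35275 gene identifiers in the count table. The symbol was read as prefix and number only, so Psmc3ip, a recombination cofactor and not a proteasome subunit, did not enter.

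Expression was measured by bulk RNA sequencing of natural killer (NK) cells, cytotoxic lymphocytes of innate immunity, obtained from mouse spleen by a sort for NK1.1 in the absence of CD3. The groups were WT control, wild-type C57BL/6 mice that received no tumour cells; WT injected, wild-type mice 20 days after B16-F10 cells, a mouse melanoma line, were put into a vein; Irf4-/- control, mice labelled as lacking the transcription factor IRF4 and not injected; and Irf4-/- injected, mice of that label 20 days after the same cells. Each of the 4 groups had 1 library. The labels give neither the age of the mice, nor how many stood behind a library, nor the part of Irf4 that was deleted or the background strain of the mutants. With no replicate in any group, a ratio between 2 libraries compares those libraries and has no p-value; its 95% interval covers counting error only, and reads copied by PCR without molecular identifiers make even that too narrow.

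The libraries held between 15878159 and 21104881 counts. Irf4 (ENSMUSG00000021356) had 93 and 57 counts in control and injected WT mice and 188 and 236 in those labelled Irf4-/-. A count over the whole gene says nothing of a deleted part, and the gene was not lower under the knockout label, so every genotype direction below rests on the labels. All 12 NK marker genes listed were measured, with a summed level between 15266 and 16916 CPM (counts set to a scaled library size of 1000000). Melanocyte genes Mlana, Tyr, Dct and Tyrp1 and the neutrophil genes Ly6g and Mpo had no count in any library. B cell markers summed to 65.9 and 28.1 CPM in control and injected WT mice and 69.2 and 49.2 in those labelled Irf4-/-, and 4 of 8 reached 5 CPM; for monocyte and macrophage markers the sums in that order were 39.2, 91.1, 60.8 and 73.6 CPM and 6 of 12 reached it. Erythroid markers summed to 37.4, 18.1, 44.4 and 108.5 CPM with 3 of 6 at 5 CPM, T cell markers to 47.8 to 55.8, dendritic cell markers to 31.7 to 44.1, and neutrophil and melanoma markers to at most 0.9 and 4.9. Plasma cell markers summed to 271.5 to 304.7 CPM, carried by Ighm and Xbp1, while Igkc had 9.83, 7.55, 13.3 and 2.47 CPM and Jchain 2.65, 2.70, 3.58 and 0.107 in that order, both lowest in Irf4-/- injected. WT injected was lowest for B cell markers and highest for macrophage markers, and its share of counts in ribosomal protein genes was 5.92% against 4.27% to 4.76% elsewhere; Irf4-/- injected was highest for erythroid markers. What part these differences have in the results below was not tested, and in bulk RNA fewer cells of a type cannot be told apart from less RNA per cell.

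Of the 40 genes, 38 reached 5 CPM on average over the libraries, and all 38 also had at least 20. The other two are the tissue-restricted subunits. Psma8, the alpha subunit of the testis, had 2 and 6 counts in control and injected WT mice and 2 and 2 in those labelled Irf4-/-. Psmb11, the beta subunit of the thymic cortex, had 2 counts in Irf4-/- control and 0 in each other library, where the limit that a count of 0 allows, 3 counts, is 0.142 CPM (WT control), 0.162 (WT injected) and 0.161 (Irf4-/- injected). Both lie near this limit and are given no ratio.

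Levels per gene length differed between the genes of the core. Levels between genes are compared as deposited FPKM, counts set to the library total and to gene length. Over the 38 genes the median FPKM was 53.4 and 54.5 in control and injected WT mice and 53.8 and 54.6 in those labelled Irf4-/-. In the alpha rings the means over libraries ran from 37.9 FPKM for Psma3 to 115 for Psma2, a ratio of 3.04, and in the beta rings from 58.2 for Psmb7 to 123 for Psmb1, a ratio of 2.11. The Psma3 value was divided by a gene length of 2846 bp, longer than that of any other alpha or beta gene measured. In the assembled core the alpha and beta subunits are present in equal numbers.

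The 19S cap genes lay lower on the same scale, with median FPKM in WT control of 46.6 for the ATPases and 44.8 for the non-ATPase subunits against 78.3 for the alpha and 86.0 for the beta genes. Among the ATPases, the motor of the cap, Psmc1 was highest with a mean of 72.5 FPKM and Psmc2 lowest with 24.3. The Psmc2 value was divided by a gene length of 3466 bp, longer than that of any other ATPase gene. In CPM, Psmc6 was the lowest ATPase, with a mean of 64.6 against 84.3 for Psmc2. The non-ATPase subunits ran from 21.5 FPKM for Psmd1, a large scaffold, to 68.0 for Psmd2, the other scaffold of the base, with the deubiquitinating subunit Psmd14 at 46.6 and the ubiquitin receptor Psmd4 at 49.5. The chaperones that help the cap assemble were lowest, with Psmd10 at 20.0 FPKM, Psmd5 at 14.5 and Psmd9 at 8.56. The activators, which cap the core in place of 19S, spanned the widest range, 12.8-fold. Psme4 (PA200) had 13.0 FPKM, Psme3 (PA28 gamma) 57.8 and Psme1 (PA28 alpha) 107. Psme2 (PA28 beta) had 167, the highest of all 38 genes.

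**Figure D1:**
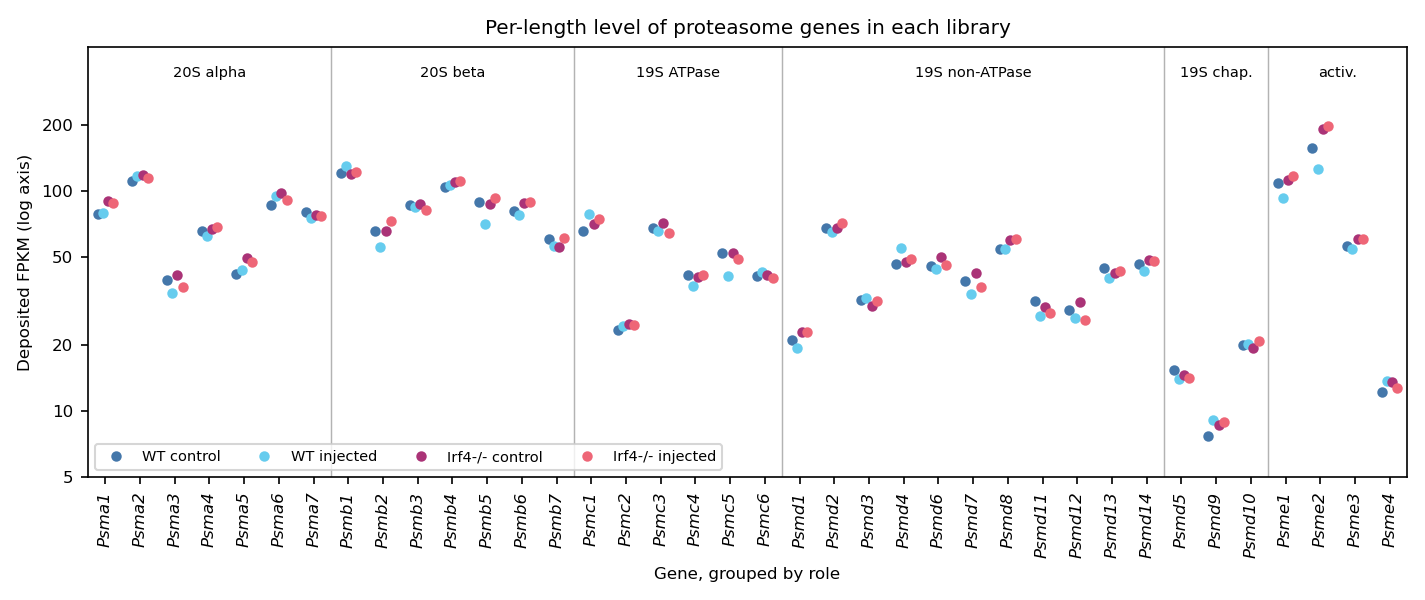
Deposited FPKM (log axis) of the 38 measured proteasome genes, 1 point for each of the 4 libraries, grouped by role with "19S chap." for assembly chaperones and "activ." for activators. The points of a gene mostly lie on top of each other, while genes differ up to 12.8-fold within the activators; Psme2 has its lowest point in WT injected.

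Across the libraries these levels differed little. The highest library was less than 25% above the lowest for 34 of the 38 genes, a share of 89.5%, where 55% of all 9674 genes with at least 5 CPM and 64.9% of the 7183 genes with at least 20 CPM did the same. These gene sets were not matched in level to the proteasome genes, whose means ran from 22.55 CPM (Psmd9) to 213.1 (Psme1). What part level has in the difference between the shares was not tested. The median range was 1.12-fold for the proteasome genes, against 1.23-fold and 1.19-fold for those gene sets. The narrowest belonged to Psma7, with 121 and 115 CPM in control and injected WT mice and 118 and 116 in those labelled Irf4-/-, a range of 1.06-fold. All measured members together summed to 3493 and 3396 CPM in control and injected WT mice and 3644 and 3624 in those labelled Irf4-/-.

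Of the 38, only Psme2, Psmb2, Psmb5 and Psmc5 spanned 25% or more, with highest-to-lowest ratios of 1.56, 1.31, 1.30 and 1.27, and Psme1 lay just inside with 1.245. Each of these 5 genes was lowest in WT injected. That library was the lowest for 19 of the 38 genes (50%) and for 34.4% of all genes with at least 5 CPM; Irf4-/- control was the highest for 14 and Irf4-/- injected for 13, where 21.5% and 20.7% of all genes had their highest level in those libraries.

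**Figure D2:**
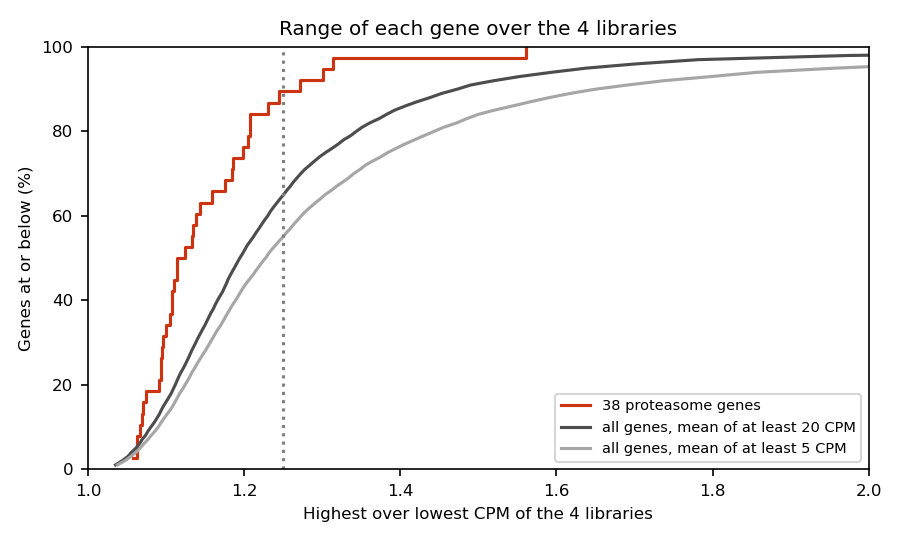
Cumulative share of genes (vertical axis, %) whose highest CPM over the 4 libraries is at most the given multiple of the lowest (horizontal axis), for the 38 measured proteasome genes and for all genes above 2 minimum levels; the dotted line marks a highest level 25% above the lowest. The proteasome curve reaches 89.5% at the line and the others 64.9% and 55.0%; the last step, at 1.56, is Psme2.

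The comparison of genotypes asked how NK cells labelled Irf4-/- differ from WT. In injected mice Psme2, Psmb2 and Psmb5 were higher under the Irf4-/- label and no proteasome gene was lower, counting a gene as higher or lower when the higher library was at least 25% above the lower and the counting interval of the ratio excluded equality. These 3 of 38 genes compare with 12% of all 9674 genes higher and 10.3% lower by the same rule, so the share was not above the background. The median log2 ratio was 0.08 (quartiles -0.04 and 0.14) over the 38 genes and 0.00 over all genes, and 26 of 38 ratios lay above 0, against 49.8% of all genes. In control mice 0 of 38 were higher and 0 lower, against 5.74% and 3.58% of all genes, the median was 0.07 against -0.01, and 26 of 38 ratios lay above 0, against 48.6% of all genes. Without a minimum size, 14 intervals lay above equality and 3 below in the injected pair, where all genes gave 27.4% each way, and 12 above and 1 below in the control pair, against 18% and 18.6%.

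The genotype pairs share no library. In both pairs 16 of the 38 genes had ratios above 0 (27% of all genes) and 2, Psmb1 and Psmd3, had ratios below 0 in both (28.6%). Psma1, Psmb6, Psmd1, Psmd8, Psme2 and Psme3 had intervals above 0 in both pairs, 6 of 38 where all genes gave 8.43%, and 0 had intervals below 0 in both, where all genes gave 7.37%. Apart from Psme2 these shifts were small. Psma1, an alpha subunit, had 93.8 and 95.2 CPM in control and injected WT mice and 107 and 106 in those labelled Irf4-/-, so both libraries of the Irf4-/- label stood above both WT libraries. Its log2 ratio was 0.19 (0.10 to 0.29) among controls and 0.15 (0.06 to 0.25) among injected mice. Psmd8, a lid subunit, had 84.0 and 84.4 CPM in control and injected WT mice and 91.8 and 92.8 in those labelled Irf4-/-. Psmd1, a scaffold of the cap, had 65.3, 60.5, 70.9 and 71.2 CPM in the same order. Psme3, a nuclear activator, had 149, 146, 161 and 161 CPM in that order. Over the 38 genes both libraries labelled Irf4-/- lay above both WT libraries for 13, against 16.5% of all genes, and below both for 1, Psmd3, against 16.9%.

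Among the activators the largest genotype difference was that of Psme2. It had 150 and 121 CPM in control and injected WT mice and 182 and 189 in those labelled Irf4-/-, from 3172, 2246, 2903 and 3525 counts. Both libraries of the Irf4-/- label lay above both WT libraries, and WT injected was the lowest. The log2 ratio was 0.64 (0.57 to 0.72), or 1.56-fold, among injected mice and 0.28 (0.21 to 0.36), or 1.22-fold, among controls, a pair without WT injected.

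Its ring partner Psme1 had 214 and 186 CPM in control and injected WT mice and 222 and 231 in those labelled Irf4-/-. The order of the libraries was the same as for Psme2 but the spread smaller, with log2 ratios of 0.32 (0.25 to 0.38) among injected mice and 0.05 (-0.01 to 0.12) among controls. The former lay just under the 25% rule and passed it with total-count scaling (0.324) or upper-quartile scaling (0.325). Per gene length, Psme2 stood above Psme1 by a ratio of 1.45 and 1.35 in control and injected WT mice and 1.70 and 1.69 in those labelled Irf4-/-.

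Psme2 has a near-identical relative. Psme2b (ENSMUSG00000078153), on chromosome 11 at 48945354 to 48946190 in GRCm38, the assembly of mm10, matched the Psme2 transcript over 794 bases with 99.37% identity, and how the authors assigned reads between such copies is not given in the sources used here. Psme2b had 16.5 and 18.4 CPM in control and injected WT mice and 18.7 and 19.6 in those labelled Irf4-/-. With its counts added to those of Psme2, an alternative chosen after the data were seen, the log2 ratio of the pair was 0.58 (0.51 to 0.65) in injected and 0.27 (0.20 to 0.34) in control mice.

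Psme1 (ENSMUSG00000022216) and Psme2 (ENSMUSG00000079197) are neighbours on chromosome 14 of GRCm38, at 55578123 to 55581529 on the plus strand and 55587441 to 55591113 on the minus strand. Their promoter windows are shown because these genes had the largest activator ratios in the injected genotype pair. The sequences are RefSeq windows of GRCm38.p6, from 250 bases before to 50 after an annotated start, on the gene's strand, with letters of the motifs named further on in capitals. RefSeq lists 2 overlapping windows for Psme2, and the upstream one is printed.
Psme1, chr14:55578244-55578543, plus strand: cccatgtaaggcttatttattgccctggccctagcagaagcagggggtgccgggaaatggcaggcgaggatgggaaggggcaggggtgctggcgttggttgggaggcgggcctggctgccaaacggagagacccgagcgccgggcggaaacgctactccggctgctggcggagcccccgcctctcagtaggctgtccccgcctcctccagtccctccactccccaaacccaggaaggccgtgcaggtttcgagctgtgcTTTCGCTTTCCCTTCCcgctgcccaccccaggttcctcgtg
Psme2, chr14:55591052-55591351, minus strand: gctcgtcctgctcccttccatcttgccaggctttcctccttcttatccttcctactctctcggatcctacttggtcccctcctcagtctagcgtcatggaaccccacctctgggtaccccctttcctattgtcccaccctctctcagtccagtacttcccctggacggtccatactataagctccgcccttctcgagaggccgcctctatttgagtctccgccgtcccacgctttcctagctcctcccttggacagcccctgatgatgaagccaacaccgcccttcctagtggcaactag
In the Psme1 window the capitals are a match to the core of the interferon-stimulated response element (GAAA, NN, GAAA without gaps), 9 to 18 bases after the start, and an overlapping match to a composite of ETS and IRF half-sites (GGAA, NN, GAAA), at 15 to 24. Both read on the opposite strand. No motif searched was found in either Psme2 window. The interferon-stimulated core was also found in windows of Psmb3, Psmd4 and Psmd9. In the injected genotype pair their log2 ratios were -0.055, -0.18 and -0.03, against 0.32 for Psme1. In the control pair they were 0.02, 0.04 and 0.16, against 0.05. A link between this core and the ratios was not tested. These are letter matches and no binding was measured.

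Over the 4 libraries the other activators spanned less, 1.10-fold for Psme3 and 1.135-fold for Psme4, against 1.245-fold for Psme1. Among controls, however, the genotype ratios of Psme3, 0.11 (0.04 to 0.19), and of Psme4 were above the 0.05 of Psme1. Psme4, which encodes a large activator with roles in chromatin, had 78.9 and 89.5 CPM in control and injected WT mice and 87.9 and 82.5 in those labelled Irf4-/-, and its genotype ratio changed sign, from 0.16 (0.05 to 0.26) among controls to -0.12 (-0.22 to -0.02) among injected mice.

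**Figure D3:**
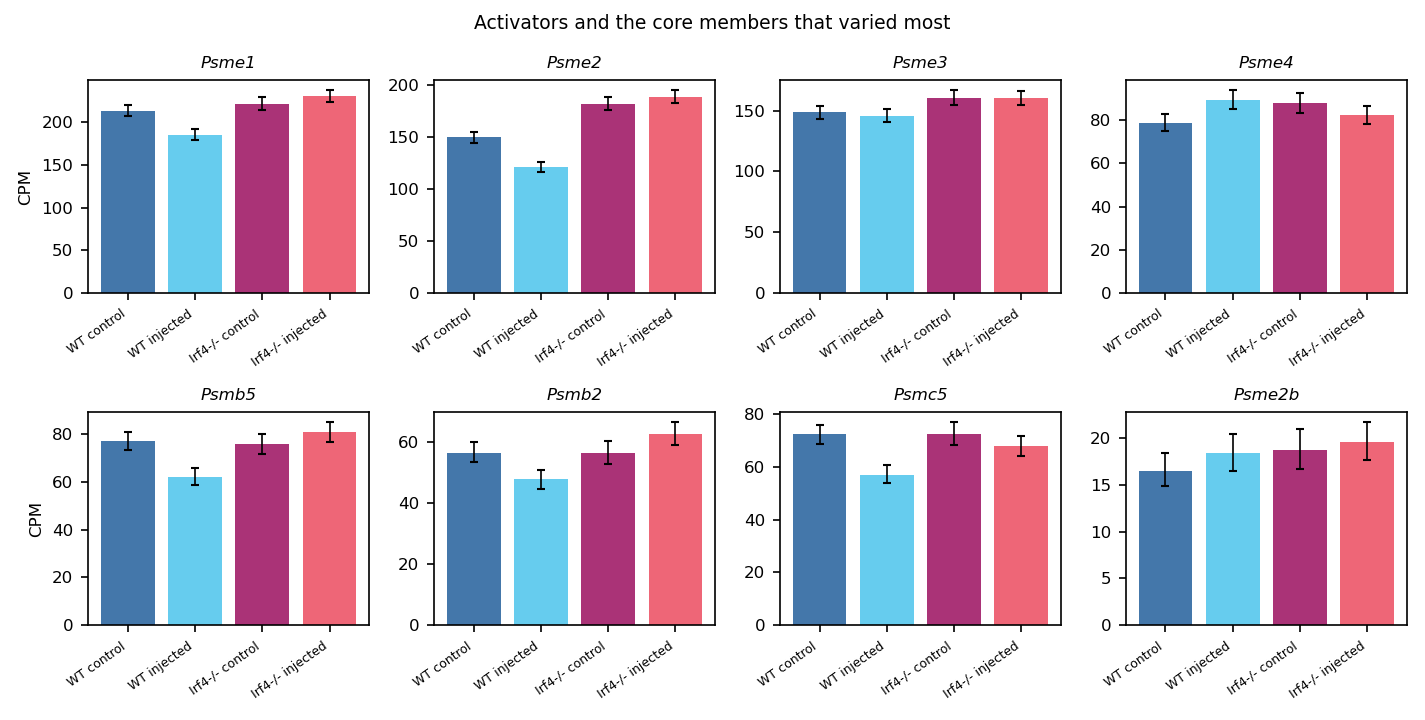
CPM of the 4 activator genes, of the core and cap members with the widest ranges (Psmb5, Psmb2, Psmc5) and of the Psme2 copy Psme2b, 1 bar per library on an axis from 0; error bars are exact 95% Poisson intervals of the count and cover counting error only. Psme2 is higher in both libraries of the Irf4-/- label (182 and 189 CPM) than in both WT libraries (150 and 121), whereas Psmb5, Psmb2 and Psmc5 set WT injected apart from the other libraries.

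In the core the catalytic subunits of the constitutive proteasome differed in their pattern over the libraries. Psmb5 (ENSMUSG00000022193, chromosome 14, 54614119 to 54618022), the chymotrypsin-like site, had 77.0 and 62.1 CPM in control and injected WT mice and 75.8 and 80.7 in those labelled Irf4-/-, with a log2 genotype ratio of 0.38 (0.27 to 0.49) among injected mice and -0.02 (-0.13 to 0.08) among controls. Only WT injected stood apart. Psmb6, the caspase-like site, had 78.3, 75.5, 84.5 and 85.6 CPM in that order, and Psmb7, the trypsin-like site, 69.7, 65.7, 64.0 and 70.8. Psmb2 (ENSMUSG00000028837, chromosome 4, 126677630 to 126709714), a beta subunit without a cutting site, had 56.5 and 47.7 CPM in control and injected WT mice and 56.4 and 62.7 in those labelled Irf4-/-, and a ratio of 0.39 (0.27 to 0.52) among injected mice against 0.00 (-0.13 to 0.12) among controls.

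Interferon-induced subunits can take the place of these 3 catalytic subunits, and their level per gene length relative to the subunit they replace was read from the FPKM values. Psmb9 over Psmb6 was 0.618 and 0.645 in control and injected WT mice and 0.682 and 0.675 in those labelled Irf4-/-. Psmb10 over Psmb7 was 2.17, 1.80, 2.22 and 2.15, with WT injected the lowest. Psmb8 over Psmb5 was 0.619, 0.726, 0.637 and 0.645, with WT injected the highest. Psmb8 itself was lowest there, with 104.4, 98.68, 105.8 and 113.9 CPM in that order. Psmb9 had 144.5, 145.4, 172.0 and 172.5 CPM, and Psmb10 165.8, 129.7, 155.5 and 166.6. Among injected mice the log2 genotype ratios of Psmb8, Psmb9 and Psmb10 were 0.21, 0.25 and 0.36. Among controls they were 0.02, 0.25 and -0.09.

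In the cap, Psmd4 had the lowest genotype ratio of the injected pair, -0.18 (-0.27 to -0.09), with 98.0 and 117 CPM in control and injected WT mice and 101 and 104 in those labelled Irf4-/-. Psme4 at -0.12 and the beta subunit Psmb1 at -0.10 followed, and the ATPases Psmc6 and Psmc1 were at -0.09 and -0.08. At the upper end of that pair, Psmc5, an ATPase, was at 0.25 (0.13 to 0.37). In the control pair the highest ratios after Psme2 were those of the alpha subunits Psma5 at 0.24 (0.12 to 0.37), Psma1, and Psma6 at 0.19 (0.09 to 0.28), and of the chaperone Psmd9 at 0.16 (-0.05 to 0.36). The lowest were those of Psmb7 at -0.12, Psmd11 at -0.10, Psmd3 at -0.09, Psmd13 at -0.08 and Psmd5 at -0.07. By role, the medians in the injected and control pairs were 0.09 and 0.10 for the 7 alpha genes, 0.11 and 0.00 for the 7 beta genes, -0.02 and 0.04 for the 6 ATPases, 0.09 and 0.07 for the 11 non-ATPase subunits, 0.01 and -0.04 for the 3 chaperones and 0.23 and 0.13 for the 4 activators.

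The injection comparisons asked whether splenic NK cells differ between mice 20 days after intravenous B16-F10 and mice given no tumour cells. In WT mice 1 of 38 genes, Psmc5, was lower and 0 were higher, where 13% of all genes were lower and 12.7% higher by the 25% rule. Psmc5 (ENSMUSG00000020708, chromosome 11, 106256154 to 106263120) had 72.4 and 57.2 CPM in control and injected WT mice and 72.6 and 68.0 in those labelled Irf4-/-, and its log2 ratio of injected to control was -0.34 (-0.46 to -0.23) in WT and -0.10 (-0.21 to 0.02) in the mice labelled Irf4-/-. Psmc1, another ATPase of the same ring, had 99.4 and 120 CPM in control and injected WT mice and 107 and 113 in those labelled Irf4-/-, with WT injected the highest. Psmb5 at -0.31, Psme2 at -0.31, Psmb2 at -0.24 and Psmd11 at -0.21 followed in WT mice. At the other end Psmc1 was at 0.27 (0.18 to 0.36), Psmd4 at 0.26 (0.17 to 0.35), Psmd9 at 0.24, Psme4 at 0.18 and Psma6 at 0.14. The median of the 38 was -0.05 and that of all genes -0.01, 10 intervals lay below 0 and 7 above, against 31% and 30% of all genes, and 15 of 38 ratios lay above 0, against 48.8%. This pair shares WT injected with the genotype pair of injected mice, so values of opposite sign in those pairs are not separate observations.

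In mice labelled Irf4-/- 0 of 38 genes were higher and 0 lower after injection, against 5.8% and 5.52% of all genes, and the median was 0.00 for the 38 and for all genes. Here 7 intervals lay below 0 and 3 above, where all genes gave 20.8% and 20.4%, and 19 of 38 ratios lay above 0, against 50.1%. The lowest ratios were those of lid, base and core subunits, Psmd12 at -0.27 (-0.40 to -0.14), Psmd7 at -0.21 (-0.33 to -0.08), Psma3 at -0.18 (-0.28 to -0.09), Psmc3 at -0.15 and Psmd6 at -0.12. Psmd12, a lid scaffold subunit, had 56.3 and 51.7 CPM in control and injected WT mice and 60.9 and 50.5 in those labelled Irf4-/-, so its control libraries lay above its injected ones. Psmd7, a lid subunit that pairs with the deubiquitinase Psmd14, was at -0.19 (-0.31 to -0.07) in WT mice, and the alpha subunit Psma3 at -0.19 (-0.28 to -0.10). Psmd7 had 62.4 and 54.7 CPM in control and injected WT mice and 67.3 and 58.3 in those labelled Irf4-/-, and both control libraries were above both injected libraries. Over the 38 genes this was so for 9, against 22.7% of all genes, and the reverse for 5, against 20.9%. Psmb2 at 0.15, Psmb7 at 0.15, Psmd10 at 0.10, Psmb5 at 0.09 and Psmd2 at 0.09 were highest.

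**Figure D4:**
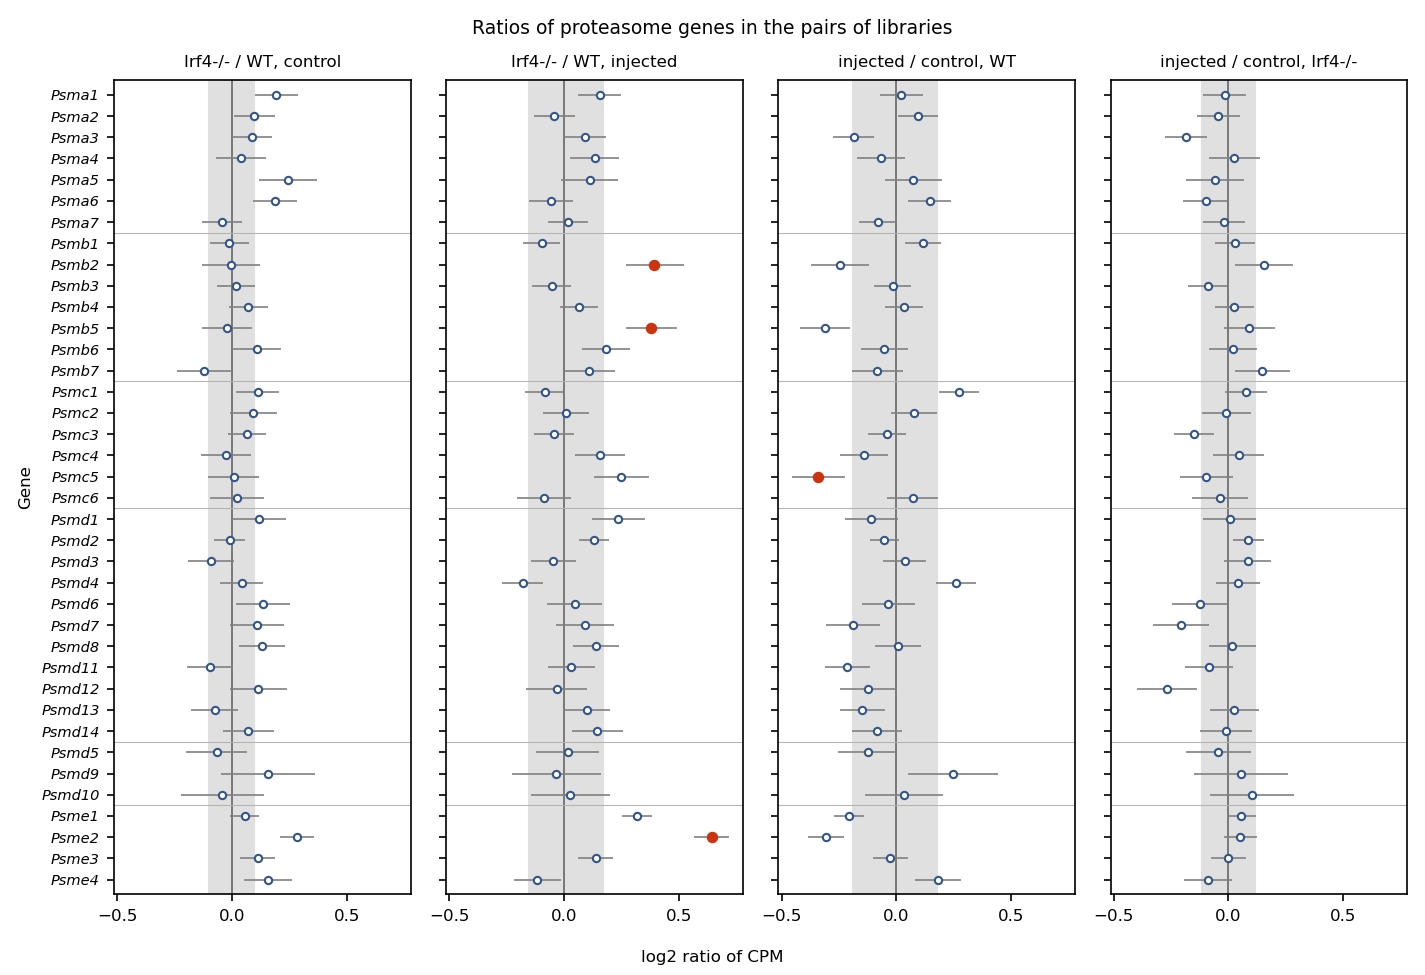
Log2 ratio of CPM for the 38 measured proteasome genes in the 4 pairs of libraries, with exact 95% counting intervals; filled red points differ by at least 25% with an interval that excludes 0, and the grey band spans the quartiles of all 9674 genes. Filled points are Psme2, Psmb2 and Psmb5 in the injected genotype pair and Psmc5 in the WT injection pair.

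Genotype and injection were tested as additive terms over all 4 libraries with edgeR's quasi-likelihood test and Benjamini-Hochberg adjustment over 11998 genes. For genotype 0 of 38 proteasome genes rose and 0 fell, where 1.22% of all genes rose and 0.258% fell. The count at an unadjusted p under 0.05 was 1 of 38, against 10.4% of all genes, and that gene was Psme2, with an additive log2 difference of 0.46 (SE 0.111, unadjusted p 0.00172, adjusted p 0.0896). Its adjusted p was 0.137 by DESeq2 and 0.0854 by limma-voom, which passed 0 of 38 genes each, with 1 each at an unadjusted p under 0.05. In edgeR it passed with median-of-ratios scaling (adjusted p 0.0101), with upper-quartile scaling (0.0386) and with no filter on low genes (0.00278), and not with a 5 CPM filter (0.0989) or without the injection term (0.511). The next smallest adjusted p was 0.593, for Psma1 with a difference of 0.17 (SE 0.093).

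For injection 0 of 38 rose and 0 fell by the same edgeR test, against 0.333% and 0.392% of all genes, and 0 had an unadjusted p under 0.05, against 14.2% of all genes; DESeq2 and limma-voom gave 0 in both respects. The smallest adjusted p was 0.37, for Psmc5 at -0.22 (SE 0.103). The median SE of a member was 0.098 on the log2 scale in either term. The model has 1 residual degree of freedom and counts any difference of response between the genotypes as error, and it does not measure the spread between animals.

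Genes that act with the proteasome were read from lists in the same test. None of the 7 subunits and bound enzymes without a Psm symbol, the 8 assembly factors and inhibitors, the 10 genes around the transcription factor NRF1 (Nfe2l1), the 6 ubiquitin and ubiquitin-activating genes, the 10 shuttle genes or the 3 induced subunits passed for either term (edgeR, adjusted p under 0.05). With 1.22% of all genes rising and 0.258% falling for genotype, and 0.333% and 0.392% for injection, counts of 0 in lists of this size are at the background. Nfe2l1, known to drive proteasome genes when the proteasome is inhibited, had 125 and 130 CPM in control and injected WT mice and 132 and 138 in those labelled Irf4-/-. Pomp, the chaperone of core assembly, had 78.4, 65.7, 81.3 and 81.7 CPM in the same order, with WT injected again the lowest. Psmf1, which encodes an inhibitor of the core, had 38.8, 40.6, 30.0 and 37.4 CPM, with Irf4-/- control the lowest.

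Of 13 chaperone genes tested, whose products fold or refold proteins and which lie in the cytosol apart from the mitochondrial chaperonins Hspd1 and Hspe1, 7 fell and 0 rose with injection, where 0.392% of all genes fell and 0.333% rose. The other 6 did not pass, and for genotype 1, Hspa1b, fell and 0 rose, against 0.258% and 1.22% of all genes. Hspa1b had 98.5 and 0.971 CPM in control and injected WT mice and 24.4 and 1.02 in those labelled Irf4-/-. Its log2 genotype ratio was -2.01 (-2.17 to -1.86) among controls and 0.06 (-0.94 to 1.09) among injected mice, so only the control pair showed a genotype difference. The injected libraries held 18 counts of Hspa1b in WT and 19 under the Irf4-/- label. For genotype, Hspa1b passed by limma-voom but not by DESeq2. The summed level of the list, Hspd1 and Hspe1 included, was 5599 and 2769 CPM in control and injected WT mice and 4713 and 3265 in those labelled Irf4-/-. Hspa8, the constitutive HSC70, fell by 0.77 (SE 0.142, adjusted p 0.0429) and Dnajb1, its cochaperone, fell by 1.35 (SE 0.113, adjusted p 0.00051) in the edgeR test. Nlrc5, the transactivator of MHC class I genes, rose with genotype (log2 difference 0.64, SE 0.109, edgeR adjusted p 0.0152), with 306 and 310 CPM in WT and 456 and 505 in the libraries labelled Irf4-/-. Both libraries of that label lay above both WT libraries, as they did for Psme2. The summed erythroid markers had their highest value in Irf4-/- injected and their lowest in WT injected, as Psme2 did, and their part in that result was not tested.

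The promoters of the family were searched for letters that the choice of members did not use. RefSeq windows were found for 33 of the 40 genes and for 27025 genes in all, noncoding genes included; a gene with several windows counted when any held a match on either strand. The ETS site CCGGAAGT was present in 8 of 33 (24.2%), against 4.3% of all genes and 3.9% of all windows. It is shown with 11 bases on each side where the window allows, in the direction of the gene, with the match in capitals.
Psma6: cagtagccataACTTCCGGgagggggcttg
Psmc1: ttggtggatgcACTTCCGGcggtggcgatt
Psmc2, downstream window: ggcgcggagctACTTCCGGtggggaagaga
Psmd6: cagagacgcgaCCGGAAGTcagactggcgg
Psmd12: atgagcgggcgACTTCCGGtgcgagtgacg
Psmd13: cgcccgcggtgCCGGAAGTgagcgagcact
Psme3: gctgtgacgcaACTTCCGGcgtgagcggcg
Psme4: gtggccccgccCCGGAAGTgacttgaggcc
Counted from the annotated start, the site lay 25 to 18 bases before it in the Psmc2 window shown, 18 to 11 before it in Psmd12 and from 6 before to 1 after in Psmd13. The Psma6 stretch shown is also from a downstream window, at 55398830 to 55398859 on chromosome 12. The Psma6 gene begins at 55384222, and its window there held no ETS site. Psmd13 starts next to Sirt3, which is transcribed the other way and shares 329 bases of transcript sequence with it, so reads there may be counted for either. Sirt3 held 461 and 499 counts in control and injected WT mice and 335 and 480 in those labelled Irf4-/-, or 28.13% as many as Psmd13.

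The core of the antioxidant response element, TGACNNNGC, is bound by NRF1 and NRF2 with small MAF proteins and is known from proteasome promoters. It was found in 6 of 33 genes (18.2%), against 14% of all genes and 12.4% of all windows, and is shown in the same way.
Psmb5: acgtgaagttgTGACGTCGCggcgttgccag
Psmb6: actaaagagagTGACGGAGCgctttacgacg
Psmc6: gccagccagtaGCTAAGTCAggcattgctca
Psmd9: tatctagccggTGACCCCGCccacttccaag
Psmd12: tctGCTGTGTCAcatttgccccc
Psme4: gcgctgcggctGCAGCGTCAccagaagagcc
The CCAAT box was found in 13 of 33 (39.4%, against 41.1% of all genes), the interferon-stimulated core in 4 (12.1%, against 4.0%), the ETS and IRF composite in 2 (6.1%, against 3.2%) and TTCNNNGAA, the core of the interferon gamma activated site, in 1 (3.0%, against 9.6%). These shares are descriptions of the letters in windows of 300 bases and were not tested.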

How the data were processed

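For 4 libraries the authors deposited raw whole-number counts of reads for each gene together with FPKM values. All 72455 deposited FPKM values with a count corresponded to that count, the library's total and a gene length that was whole within 0.01 bp. The submitters' processing notes name TopHat, edgeR and mm10; no source used here gives the counting tool, annotation or strand setting, or how reads of near-identical or overlapping genes were assigned. Per the labels' protocols, a kit enriched NK cells before the sort, and SMARTER chemistry was used for the libraries.

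Symbols came from GENCODE M21 (GRCm38), which matched 34490 identifiers. Counts were scaled by TMM in edgeR 4.0.16 (R 4.3.3), computed where 2 or more libraries had 1 CPM or more. Log2 ratios used a prior count of 2, with exact Clopper-Pearson intervals of the counts. The additive edgeR fit (glmQLFit, glmQLFTest, two-sided) had 1 residual and 9.62 prior degrees of freedom, and its common dispersion, 0.00996, is a spread between these libraries that may be technical. The SE printed is |log2 difference| over the root of the F statistic. A gene is said to have risen or fallen only by that test. DESeq2 1.42.0 and limma 3.58.1 served as alternatives, as did other scalings, filters, prior counts and sizes. Copies were sought with BLAST+ 2.17.0, at 95% identity or more over 200 bases or more. The steps were tested on simulated data.

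The genes named are the 5 highest and 5 lowest members of each pair, the extremes of each role, all activators, the catalytic subunits, members below the minimum and up to 4 genes of each related list in each pair; Psma7, Psmd8, Psmd14 and the copies other than Psme2b were chosen after their values were seen. The members, lists and rules were chosen with earlier results of these data known. A result for the class I presentation list as a whole is not reported here.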

Additional observations from a re-analysis of the deposited data

How the results depend on the processing

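No paired analysis was possible because each group had 1 library and the labels carry no replicate numbers; for the same reason no replicate could be left out. The median ratios of the proteasome genes kept their size in all but 1 alternative: with no filter, which adds Psma8 and Psmb11, the injected genotype median was 0.054 instead of 0.076. In the Irf4-/- injection pair the median lay on either side of 0, from -0.005 to 0.018. Counts moved with the size asked for. With no minimum fold 17 genes (14 higher, 3 lower) passed in the injected genotype pair, 13 in the control pair, 17 in the WT injection pair and 10 in the Irf4-/- injection pair; at 1.5-fold 1 passed in the injected genotype pair, Psme2, and 0 in the WT injection pair. With total scaling 2 passed in the WT injection pair, Psmc5 and Psmb5. In the additive genotype test 1 gene, Psme2, passed at an adjusted p under 0.1, with median-of-ratios scaling, with upper-quartile scaling and with no filter, instead of 0; its adjusted p ranged from 0.00278 to 0.511 over the alternatives. With 1 library a group, no difference of a member, whatever its size, could be told from variation between samples.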

Other observations

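Copies of proteasome genes elsewhere in the genome were searched for with the members' transcripts. Of the members, 11 had 16 other genes in the count data that shared at least 200 bases at 95% identity or more, and 12 of those 16 had a count. The processed transcript A730017L22Rik on chromosome 2 matched 1501 bases of Psmd11 with 97.94% identity and held 206 and 128 counts in control and injected WT mice and 148 and 170 in those labelled Irf4-/-, or 10.14% of the counts of Psmd11. With its counts added, the log2 ratio of Psmd11 in the WT injection pair was -0.24 (-0.33 to -0.14), against -0.21 without. The pseudogene Gm13835 on chromosome 6, identical to Psma3 over 665 bases, held 9, 22, 22 and 22 counts in the same order. Of the overlapping genes, Sirt3 held 28.13% as many counts as Psmd13 and Nek6 3.68% as many as Psmb7. Psmc3ip, whose symbol goes on after the number and which is no subunit, had 77 and 39 counts in control and injected WT mice and 44 and 56 in those labelled Irf4-/-.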
